A study of Mus musculus with 6 samples.

Results

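The receptor genes for glial cell line-derived neurotrophic factor (GDNF) were followed in sorted mouse spermatogonia: Ret, the 4 GFRA co-receptor genes Gfra1 to Gfra4, and Ncam1. Members were taken by their symbols, and all 6 were found among the 54087 gene rows of each count file. The 6 libraries hold RNA of germ cells of 10-day-old C57BL/6 males, 3 labelled Dnmt3A KO/KO and 3 labelled Dnmt3A WT/WT, the genotype being that of a de novo DNA methyltransferase gene. The cells of both genotypes were gated on an Id4-GFP reporter, keeping its bright and medium signal, and the labels equate this gate roughly with spermatogonial stem cells. The labels give neither the design of the KO allele nor a driver for it, and they do not say whether replicates of a genotype were separate animals, so p-values measure only the spread between these samples.

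GDNF is secreted by somatic cells of the testis and sustains the self-renewal of spermatogonial stem cells. It binds GFRA1, a co-receptor anchored to the outer face of the membrane by a lipid, and the pair then engages RET, the receptor tyrosine kinase that carries the signal into the cell. GFRA2, GFRA3 and GFRA4 serve the related ligands neurturin, artemin and persephin in the same way. NCAM1, a neural cell adhesion molecule, can act as another signalling partner of GDNF and GFRA1 in neurons.

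The members lie at separate loci (GENCODE M21, GRCm38). Gfra1 (ENSMUSG00000025089.15) is at 58235604 to 58455909 on chromosome 19 and Ret (ENSMUSG00000030110.13) at 118151745 to 118197718 on chromosome 6. Gfra2 is at 70890120 to 70979838 on chromosome 14, Gfra4 at 131039632 to 131043088 on chromosome 2 and Ncam1 at 49502136 to 49798925 on chromosome 9. Of their merged exon bases, 7.60% of Gfra1 lies under the antisense gene Gm16277 and 4.81% of Ncam1 under the antisense gene Gm11149. Neither antisense gene has a row in the count files. Whether the authors counted by strand is not stated in the labels, so reads from the antisense stretches cannot be assigned to a strand. On its own strand Gfra4 shares 3.70% with Mir6973b, which had 0 reads in all 6 libraries.

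DNMT3A methylates cytosine in the dinucleotide CG, and RefSeq promoter windows (GRCm38.p6, 250 bases before to 50 after an annotated start) were at hand for Gfra1 and Gfra4. They are shown, with every CG in capitals, because these were the only members with a window in the table used, and not for how they moved. CG reads the same on both strands.
Gfra1, chr19:58455349-58455648, minus strand: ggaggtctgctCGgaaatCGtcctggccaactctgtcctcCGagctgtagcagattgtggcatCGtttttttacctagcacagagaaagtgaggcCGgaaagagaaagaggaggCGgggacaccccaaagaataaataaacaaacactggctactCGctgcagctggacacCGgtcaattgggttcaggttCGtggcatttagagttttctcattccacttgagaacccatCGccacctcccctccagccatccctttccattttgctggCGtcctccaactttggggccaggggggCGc
Gfra4, chr2:131043039-131043338, minus strand: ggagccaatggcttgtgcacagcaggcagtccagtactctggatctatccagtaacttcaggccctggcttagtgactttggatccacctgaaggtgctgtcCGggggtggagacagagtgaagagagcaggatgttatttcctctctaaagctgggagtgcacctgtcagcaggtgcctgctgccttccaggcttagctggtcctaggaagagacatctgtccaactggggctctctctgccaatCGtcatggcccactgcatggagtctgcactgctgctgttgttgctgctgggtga
The Gfra1 window holds 12 CG dinucleotides, and 39.6% of the 32851 RefSeq promoter windows hold as many or more. The printed Gfra4 window holds 2, and 85.9% of windows hold as many or more. A second Gfra4 window, at chr2:131042633-131042932, holds 6, close to the median of 7. Methylation itself was not measured, so these counts describe the sequence alone.

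Gene totals were between 42681201 and 61749155 counts per library. Dnmt3a stood at 90.2, 104 and 99.6 CPM (read counts scaled by library size) in the KO/KO libraries, against 215, 193 and 188 CPM in the WT/WT libraries, which do not overlap (edgeR log2 fold change -1.02, SE 0.09, adjusted p = 0.000222, n = 3 per genotype). The KO/KO level was 0.493 times that of WT/WT, so transcript was still counted, and since the altered stretch of the gene is not given in the labels, this level does not check the knockout. The germ cell markers Ddx4, Dazl, Sall4, Mael and Tdrd1 summed to between 1279 and 1446 CPM in KO/KO and between 1477 and 1523 CPM in WT/WT. Sall4 passed the test as lower (edgeR adjusted p = 0.0485), a call lost in 8 of the 13 alternative fits. These markers did not move together. Ddx4 was higher in every KO/KO library (log2 fold change 0.24) but was not called (edgeR adjusted p = 0.0643). Dazl (-0.30), Mael (-0.28) and Tdrd1 (0.02) were not called either. KO/KO replicate 1 was about equally distant from both genotypes, with a chi-square per degree of freedom between 34.5 and 35.4 against WT/WT and of 36.3 and 37.1 against KO/KO replicates 2 and 3. On the same measure KO/KO replicates 2 and 3 stood 49.2 apart, and pairs of WT/WT libraries between 12.4 and 14.8, so all KO/KO libraries differed more among themselves. Over the 3144 genes called, the shift of KO/KO replicate 1 from WT/WT was 76.6% (median) of the mean log2 shift of the other KO/KO libraries, with quartiles of 60.3% and 95.6%.

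The kinase and the GDNF-binding part of the receptor, Ret and Gfra1, were both higher in KO/KO spermatogonia, Gfra2 was higher in part of the KO/KO libraries, and Gfra3 was lower. Gfra4 and Ncam1 did not pass the test. All 6 members passed the filter on low counts. With edgeR's quasi-likelihood test and Benjamini-Hochberg adjustment over 21314 genes, 3 members were higher and 1 was lower at an adjusted p under 0.05, beside 8.33% of all genes tested that were higher and 6.42% that were lower. In 4 members the 2 genotypes did not overlap, as in 35.8% of all genes tested. The median log2 fold change was 0.66 over the members and 0.00 over all genes tested.

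Ret, the kinase, had 290, 378 and 354 CPM in the KO/KO libraries, against 206, 192 and 188 CPM in the WT/WT libraries. Every KO/KO library lay above every WT/WT library, and KO/KO replicate 1 was the lowest of the KO/KO libraries. The log2 fold change was 0.80 (SE 0.10, n = 3 per genotype, edgeR adjusted p = 0.00127), a 1.75-fold higher level with a 95% interval of the log2 difference from 0.58 to 1.03, not adjusted for the number of genes. Between 7660 and 22858 reads per library stood behind these values.

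Gfra1, the GDNF-binding co-receptor, had 196, 273 and 219 CPM in the KO/KO libraries, against 121, 121 and 99.8 CPM in the WT/WT libraries. The genotypes were again fully apart, with KO/KO replicate 1 lowest among the KO/KO libraries. The log2 fold change was 1.01 (SE 0.13, n = 3 per genotype, edgeR adjusted p = 0.00127), a 2.02-fold higher level with a 95% interval of the log2 difference from 0.72 to 1.30. The shift of KO/KO replicate 1 was 71.5% of that of the other KO/KO libraries for Gfra1 and 62.8% for Ret, both between the lower quartile and the median of all called genes. Neither call was lost in any of the 13 alternative fits.

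**Figure D1:**
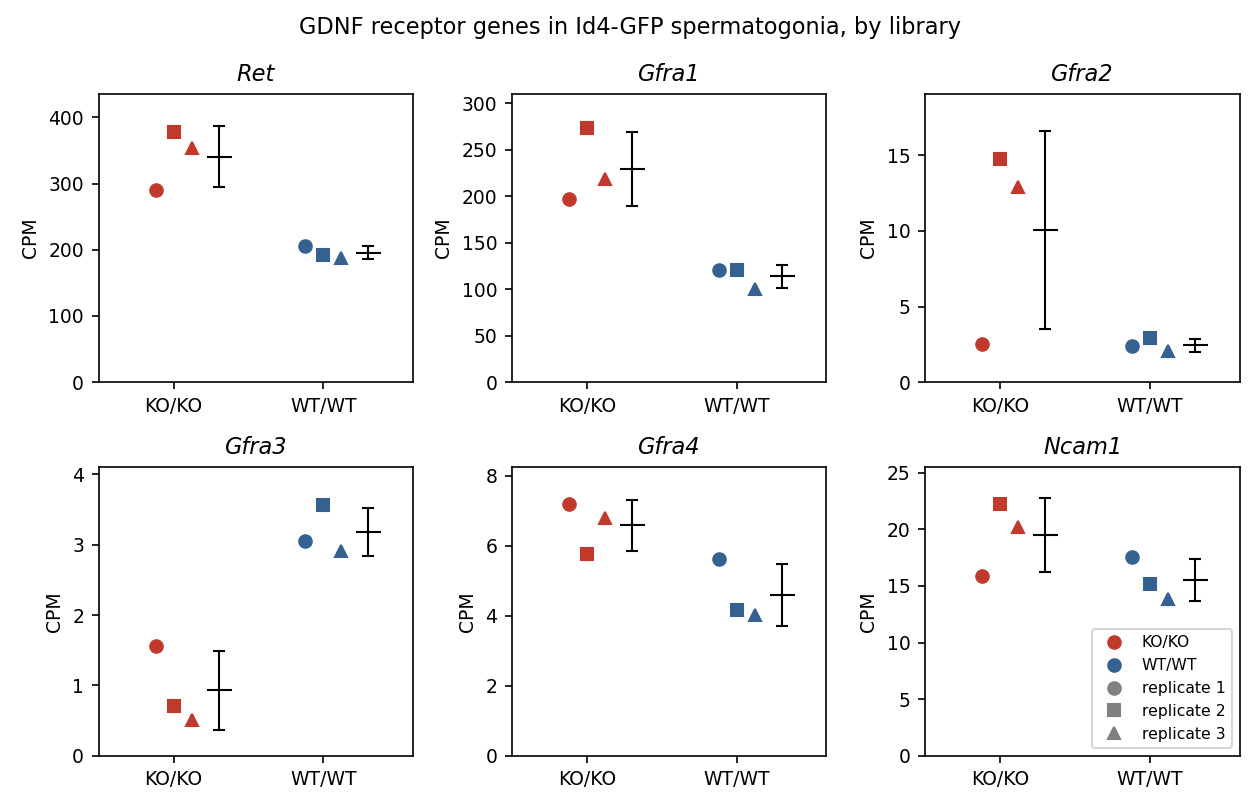
CPM of the 6 GDNF receptor genes (linear axes from 0), with 1 point per library, KO/KO in red and WT/WT in blue, and the mean ± SD of 3 libraries as black bars. Ret, Gfra1 and Gfra4 lie higher and Gfra3 lower in every KO/KO library, while Gfra2 is high in KO/KO replicates 2 and 3 and at 2.55 CPM in replicate 1.

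Markers of stem and differentiating spermatogonia moved beside Ret and Gfra1. For each count of calls in a list here and below, the share over all genes tested was 8.33% higher and 6.42% lower. Of 10 stem cell markers, 9 were tested and 7 rose and none fell, and the 10 summed to between 303 and 492 CPM in KO/KO and between 191 and 212 CPM in WT/WT. Among these, Id4, whose reporter set the gate, stood at 86.7, 176 and 159 CPM in KO/KO and 36.9, 38.1 and 38.4 CPM in WT/WT. Of 8 differentiation markers 5 fell and 1, the meiotic histone methyltransferase gene Prdm9, rose, with sums between 390 and 525 CPM in KO/KO and between 639 and 747 CPM in WT/WT. Kit, the receptor of differentiating spermatogonia, stood at 38.6, 5.63 and 8.44 CPM in KO/KO and 118, 98.9 and 150 CPM in WT/WT, so KO/KO replicate 1 lay between the others and WT/WT. Of 7 progenitor markers 3 fell and none rose, with sums between 379 and 492 CPM in KO/KO and between 623 and 755 CPM in WT/WT. In bulk samples fewer cells of a type and less RNA per cell cannot be told apart, and the part of these markers in the receptor results was not tested.

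Gfra2, the neurturin co-receptor, split the KO/KO libraries. It had 2.55, 14.7 and 12.9 CPM in KO/KO replicates 1, 2 and 3 (114, 727 and 831 reads), against 2.40, 2.91 and 2.03 CPM in the WT/WT libraries (105, 140 and 83 reads). KO/KO replicate 1 lay inside the WT/WT range, and the other KO/KO libraries lay well above it. The log2 fold change was 2.04 (SE 0.52, n = 3 per genotype, edgeR adjusted p = 0.0275), with a 95% interval from 0.89 to 3.19. The shift of KO/KO replicate 1 was 2.58% of that of the other KO/KO libraries, and the spread of log2 CPM within KO/KO (SD 1.29) was larger than that of 99.9% of all genes tested, against 0.21 and 70.0% within WT/WT. The call was lost with limma-voom (log2 fold change 1.76, adjusted p = 0.125) and without any library other than KO/KO replicate 1 (adjusted p between 0.0553 and 0.106), while without KO/KO replicate 1 the log2 fold change was 2.50 (edgeR adjusted p = 0.000255).

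Gfra3, the artemin co-receptor (chromosome 18, 34689898 to 34720387), was the member that fell. It had 1.56, 0.709 and 0.512 CPM in the KO/KO libraries (70, 35 and 33 reads), against 3.06, 3.57 and 2.92 CPM in the WT/WT libraries (134, 172 and 119 reads). Every KO/KO library lay below every WT/WT library, with KO/KO replicate 1 nearest to them. The log2 fold change was -1.80 (SE 0.39, n = 3 per genotype, edgeR adjusted p = 0.0139), with a 95% interval from -2.66 to -0.93. Without WT/WT replicate 2 the adjusted p was 0.0637 (log2 fold change -1.70), and without KO/KO replicate 1 the log2 fold change was -2.38.

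GFRA3 is known from peripheral sensory and sympathetic neurons, so markers of nerve were read beside it. Of 10 Schwann cell, neural crest and neuron markers 6 were tested, none rose and 2 fell. The 2 were Sox10, a neural crest transcription factor, at 2.35, 2.53 and 1.58 CPM in KO/KO and 9.09, 6.11 and 4.63 CPM in WT/WT, and the neuronal RNA-binding protein gene Elavl3 (log2 fold change -0.75, SE 0.21, edgeR adjusted p = 0.0415), which was no longer called when any library other than KO/KO replicate 1 was left out (adjusted p between 0.0670 and 0.167). The 10 summed to between 23.3 and 26.4 CPM in KO/KO and between 26.9 and 30.7 CPM in WT/WT. The markers Foxd3 and S100b stayed under 0.5 CPM in all 6 libraries. The part of nerve cells in the fall of Gfra3 was not tested.

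Gfra4, the persephin co-receptor, had 7.19, 5.78 and 6.79 CPM in the KO/KO libraries, against 5.62, 4.15 and 4.02 CPM in the WT/WT libraries. The genotypes did not overlap, but the lowest KO/KO library was close to the highest WT/WT library, and the gene missed the threshold (edgeR adjusted p = 0.108, n = 3 per genotype, log2 fold change 0.52, SE 0.20). The 95% interval of 0.08 to 0.96 leaves room for a change of the size seen in Ret.

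Ncam1 had 15.9, 22.3 and 20.2 CPM in the KO/KO libraries, against 17.6, 15.2 and 13.8 CPM in the WT/WT libraries. KO/KO replicate 1 lay inside the WT/WT range, and Ncam1 missed the threshold (log2 fold change 0.33, SE 0.15, n = 3 per genotype, edgeR adjusted p = 0.193, 95% interval -0.02 to 0.67). Gfra4 and Ncam1 missed the threshold in all 13 alternative fits as well, with adjusted p between 0.0616 and 0.318 for Gfra4 and between 0.0663 and 0.452 for Ncam1.

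Levels can be compared between genes only per length, and CPM were therefore divided by the merged exon length in kb, which takes no account of isoforms. On this scale Ret and Gfra1 stood far above the other members in every library. Ret averaged 50.4 ± 6.76 CPM per kb in KO/KO and 28.9 ± 1.44 in WT/WT (SD, n = 3 each), and Gfra1 41.9 ± 7.24 in KO/KO and 20.8 ± 2.22 in WT/WT. Ret was the higher of the pair in 3 of 3 libraries of each genotype, although their ranges overlapped in KO/KO. Among all genes tested, Ret ranked between the 96.6th and 97.7th percentile in KO/KO and between the 92.7th and 94.1st in WT/WT, and Gfra1 between the 95.5th and 97.3rd in KO/KO and between the 87.4th and 90.7th in WT/WT.

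The other 4 members were low on the same per-length scale, and their order differed between the genotypes. Gfra4 averaged 3.04 ± 0.34 CPM per kb in KO/KO and 2.12 ± 0.41 in WT/WT, and Ncam1 2.25 ± 0.38 in KO/KO and 1.79 ± 0.22 in WT/WT. Gfra2 averaged 2.84 ± 1.86 CPM per kb in KO/KO and 0.69 ± 0.12 in WT/WT, and Gfra3 0.46 ± 0.28 in KO/KO and 1.59 ± 0.17 in WT/WT. Gfra3 was above Gfra2 in all 3 WT/WT libraries and in KO/KO replicate 1, whereas Gfra2 was above Gfra3, Gfra4 and Ncam1 in KO/KO replicates 2 and 3. Gfra4 was above Ncam1 in all 6 libraries, although their ranges overlapped in WT/WT, and the range of Gfra2 in KO/KO spanned those of both. Ncam1 and Gfra3 did not differ beyond their spread in WT/WT, where Gfra3 was the higher of the pair in 1 of 3 libraries.

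**Figure D2:**
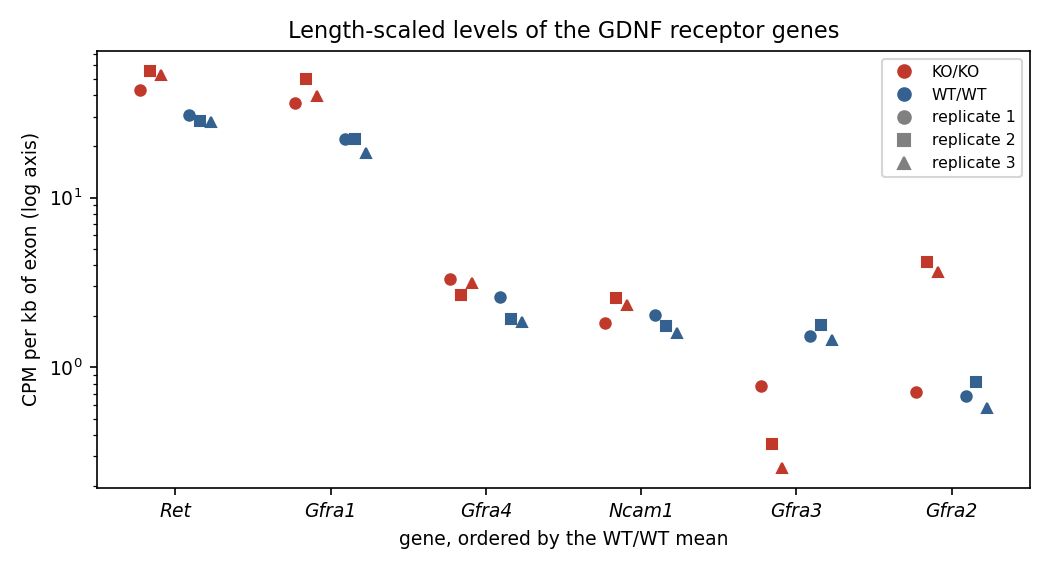
Level of each member in CPM per kb of merged exon (log axis), 1 point per library, KO/KO in red left of WT/WT in blue. Ret and Gfra1 lie above 18 CPM per kb in all 6 libraries and the other members at or below 4.16.

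Gfra1 made up most of the summed GFRA co-receptor level in every library. Its share of the 4 GFRA genes, per kb, was 88.1%, 87.4% and 85.0% in the KO/KO libraries, against 82.1%, 83.0% and 82.4% in the WT/WT libraries. The Gfra2 share was 1.77%, 7.29% and 7.76% in KO/KO, against 2.52%, 3.09% and 2.60% in WT/WT. The Gfra3 share was 1.92%, 0.622% and 0.546% in KO/KO, against 5.69%, 6.73% and 6.60% in WT/WT. The summed level itself was 40.7, 57.1 and 46.9 CPM per kb in KO/KO, against 26.9, 26.6 and 22.1 CPM per kb in WT/WT.

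The balance of co-receptor and kinase within a library does not rest on library scaling. The ratio of Gfra1 to Ret per kb was 0.837, 0.893 and 0.761 in the KO/KO libraries, against 0.725, 0.778 and 0.656 in the WT/WT libraries. The genotypes overlapped, since KO/KO replicate 3 lay below WT/WT replicate 2. The mean log2 ratio was 0.21 higher in KO/KO (exact two-sided permutation test, n = 3 per genotype, p = 0.2, 0.2 after adjustment over the 2 ratios), and the smallest p this design allows is 0.1. The ratio of Ncam1 to Ret per kb was 0.0428, 0.0460 and 0.0446 in KO/KO, against 0.0664, 0.0619 and 0.0575 in WT/WT, with no overlap. Its mean log2 value was lower in KO/KO by a difference of -0.48 (exact two-sided permutation test, n = 3 per genotype, p = 0.1, 0.2 after adjustment).

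**Figure D3:**
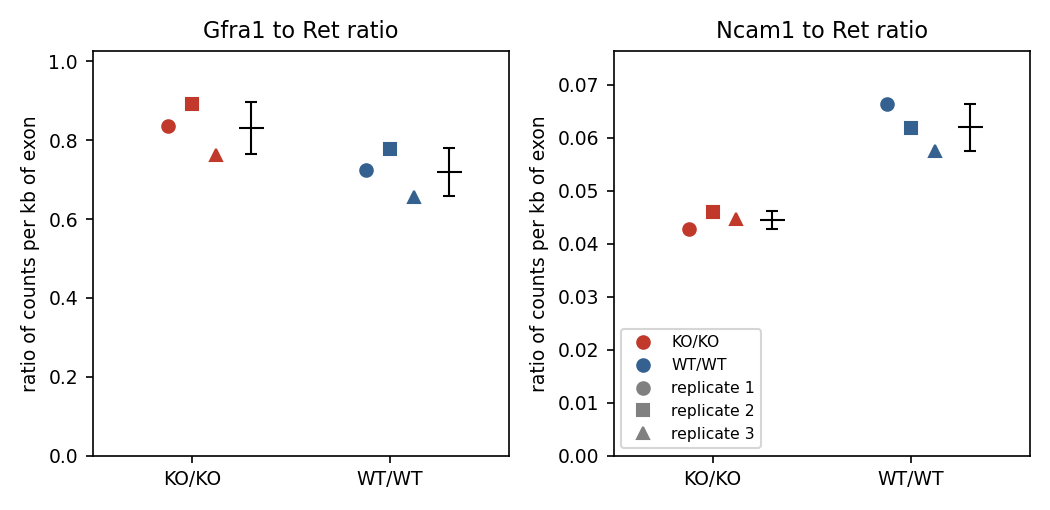
Ratio of Gfra1 to Ret (left) and of Ncam1 to Ret (right) in counts per kb of exon, with 1 point per library, KO/KO in red and WT/WT in blue, and the mean ± SD as black bars (axes from 0). The Gfra1 to Ret ratios of the genotypes overlap, and the Ncam1 to Ret ratio is at most 0.0460 in KO/KO and at least 0.0575 in WT/WT.

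None of the 4 tested genes among the ligands and GFRA-related receptors passed the test in edgeR or DESeq2, and 2 of them had an unadjusted edgeR p under 0.05. Gdnf was counted at 4.94, 3.75 and 5.46 CPM in KO/KO and 3.47, 2.43 and 4.93 CPM in WT/WT, which overlap (log2 fold change 0.39, SE 0.27, edgeR adjusted p = 0.384, 95% interval -0.22 to 1.00). Sertoli cells are a known source of GDNF, and their 8 markers, of which 0 passed in edgeR or DESeq2 and 0 had an unadjusted edgeR p under 0.05, summed to between 503 and 761 CPM in KO/KO and between 505 and 763 CPM in WT/WT. Of 5 myoid markers 4 were tested, and 0 passed in edgeR, 1 in DESeq2 and 1 at an unadjusted edgeR p under 0.05, with sums between 8.31 and 11.9 CPM in KO/KO and between 5.83 and 19.3 CPM in WT/WT. Nrtn, which encodes neurturin, had 4.65, 4.54 and 6.56 CPM in KO/KO and 4.09, 3.78 and 3.29 CPM in WT/WT, with no overlap and no call (edgeR adjusted p = 0.147). Artn, the artemin gene, was under 0.5 CPM in all 6 libraries (adjusted p = 0.678 in edgeR). Pspn, the persephin gene, had 6, 0 and 0 reads in KO/KO and 3, 4 and 1 in WT/WT, too few to test.

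The more distant relatives were low as well. Gas1, a GFRA-like surface protein, had 1.01, 0.993 and 1.02 CPM in KO/KO and 1.44, 1.77 and 1.89 CPM in WT/WT, short of the threshold (edgeR adjusted p = 0.0926). Gfral, the brainstem receptor for GDF15, had 0 reads in every library (a count of 0 allows up to 3 reads, or at most 0.0735 CPM, for counting error only), and Gdf15 had 9, 16 and 16 reads in KO/KO and 3, 1 and 8 in WT/WT, too few to test.

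Among 32 genes of RET adaptors and proximal signalling, 31 were tested, 5 rose and 2 fell, with a median log2 fold change of 0.01 beside 0.00 over all genes tested. Of all genes tested 8.33% rose and 6.42% fell, the latter close to the share of falls in this list. The rises were those of Dok4, a docking protein of RET (log2 fold change 1.42, SE 0.27, edgeR adjusted p = 0.00777), and of Pik3r1, the regulatory subunit of PI3 kinase (0.92, SE 0.16), Irs2 (0.72, SE 0.14), Irs1 (0.93, SE 0.21) and Shank3 (0.55, SE 0.11). Irs1 and Irs2 encode docking proteins best known from insulin signalling, and Shank3 a scaffold protein. Pik3r1 had 33.9, 50.9 and 42.7 CPM in KO/KO and 23.2, 19.4 and 25.0 CPM in WT/WT. The falls were those of Src, a tyrosine kinase that relays RET signals (log2 fold change -0.75, SE 0.10, edgeR adjusted p = 0.00157), and of Ptprf, a receptor tyrosine phosphatase (-0.48, SE 0.08). Src had 29.4, 26.1 and 29.0 CPM in KO/KO and 50.9, 46.3 and 45.2 CPM in WT/WT, with no overlap. The core adaptors Shc1, Grb2, Gab1, Frs2 and Sos1 had log2 fold changes between -0.07 and 0.07, none past the test. Without WT/WT replicate 2, 3 of the list rose, and Shank3 (adjusted p = 0.0536) and Irs1 (0.0736) lost their calls. Leaving out WT/WT replicate 3 ended the call of Irs1 as well (adjusted p = 0.0722 in edgeR).

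Of 11 relatives and partners of NCAM1, 9 were tested, 1 rose and none fell (median log2 fold change 0.24), beside 8.33% of all genes tested that rose and 6.42% that fell. The rise was that of L1cam, an adhesion molecule of the same superfamily, with 4.65, 5.45 and 5.01 CPM in KO/KO and 2.76, 2.47 and 2.53 CPM in WT/WT (log2 fold change 0.96, SE 0.19, edgeR adjusted p = 0.00874), and without WT/WT replicate 2 its adjusted p was 0.0547. St8sia2 and St8sia4, which add polysialic acid to NCAM1, were low and did not pass the test. St8sia4 had 13, 39 and 35 reads in KO/KO and 3, 11 and 6 in WT/WT (edgeR adjusted p = 0.0711).

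Genes known to be induced by GDNF in cultured spermatogonial stem cells moved in both directions. Of 12, all tested, 5 rose and 4 fell (median log2 fold change 0.50), beside 8.33% of all genes tested that rose and 6.42% that fell. Of the 12, 5 also stand in the list of stem cell markers. Id4 (1.89, SE 0.22), T (1.59, SE 0.36) and Lhx1 (0.92, SE 0.14), all transcriptional regulators, were among the rises on the log2 scale, and Mycn (-0.70, SE 0.15), Egr4 (-0.60, SE 0.12) and Bcl6b (-0.58, SE 0.11) among the falls. The rises of Id4, T, Lhx1 and Tspan8 were in genes of both lists, already counted among the stem cell markers, while none of the falls was in that marker list. Egr2, which also rose (0.77, SE 0.19, edgeR adjusted p = 0.0236), was not in that marker list. Etv5, a gene of both lists, was not called (0.53, SE 0.17, edgeR adjusted p = 0.066). Without WT/WT replicate 2 there were 2 rises and 2 falls, and T (edgeR adjusted p = 0.0649) and Bcl6b (0.0586) were among the calls lost. Without WT/WT replicate 3 there were again 2 rises and 2 falls, and T (edgeR adjusted p = 0.0615) and Mycn (0.0692) were among the calls lost.

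**Figure D4:**
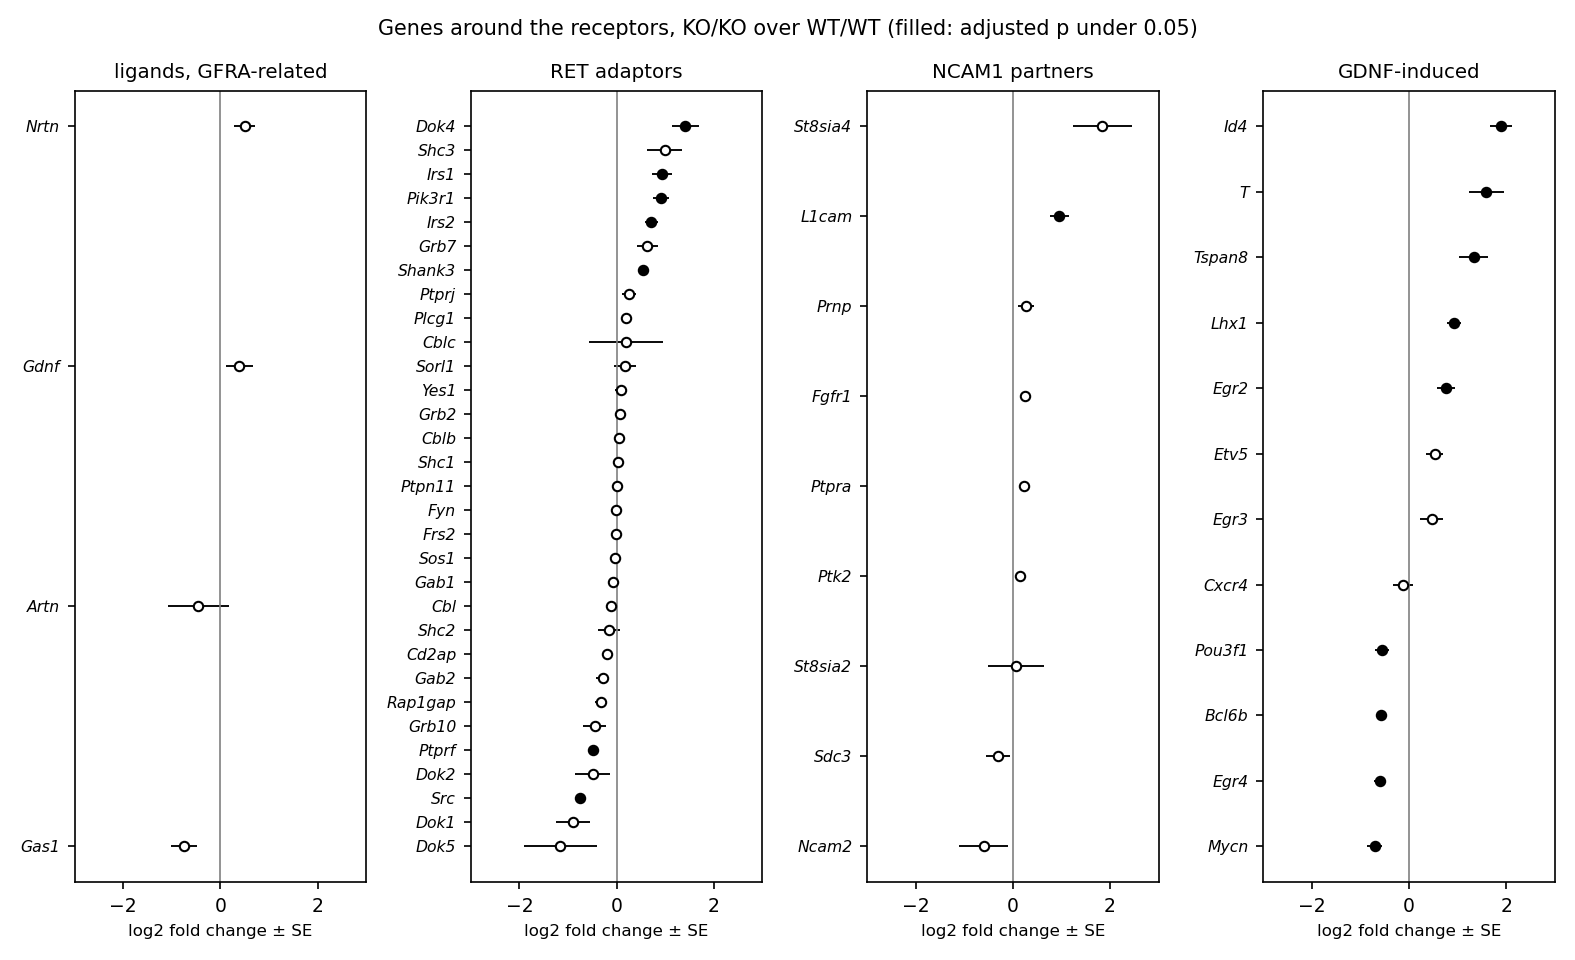
Log2 fold change of KO/KO over WT/WT with its SE for each tested gene of the 4 lists around the receptors, filled where the edgeR adjusted p was under 0.05. RET adaptors and GDNF-induced genes include calls on both sides of 0, and no ligand gene is filled.

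Markers of other cells gave a mixed picture beside these lists. Of 8 endothelial markers 7 were tested, 4 rose and none fell, with sums between 119.9 and 159.5 CPM in KO/KO and between 33.8 and 40.7 CPM in WT/WT. The rises were those of Cdh5 (mean 51.7 CPM in KO/KO and 6.53 in WT/WT), Flt1 (46.1 and 14.3), Kdr (27.5 and 8.48) and Vwf (10.6 and 1.745). Pecam1 averaged 4.04 ± 1.08 CPM in KO/KO and 3.61 ± 1.14 CPM in WT/WT (SD, n = 3 each), and Tek 2.69 and 3.04 CPM, neither called. Esam and Cldn5 stayed under 0.5 CPM in all libraries. Cldn5 was higher in every KO/KO library but was not called (edgeR adjusted p = 0.0914). Of 7 stromal markers 6 were tested and 2 fell, with sums between 41.6 and 62.5 CPM in KO/KO and between 83.3 and 115 CPM in WT/WT. Col1a1 (mean 24.3 CPM in KO/KO and 66.3 in WT/WT) and Pdgfra (12.9 and 19.6) were the genes that fell. Col1a2, Col3a1, Dcn and Tcf21 overlapped between the genotypes and were not called. Of 6 macrophage markers 2 were tested and 1, Cd68, rose, with 5 of the 6 under 0.5 CPM throughout. Of 6 Leydig cell markers 4 were tested, and 0 passed in edgeR or DESeq2 or at an unadjusted edgeR p under 0.05, with sums between 24.0 and 38.7 CPM in KO/KO and between 28.5 and 38.0 CPM in WT/WT. Their part in the receptor results was not tested.

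The genes whose pattern over the 6 libraries was most like that of each member were sought among 11813 genes. These averaged at least 1 on the log2 CPM scale, and genes with predicted or clone-like symbols were left out. Likeness was the root mean square difference of log2(CPM + 0.5) after centring each gene on its mean, where a smaller value means a closer pattern, and it is given as a description. For Ret the nearest were Tchp (0.0297), Zcchc6 (0.0345) and Dpp9 (0.0435), and for Gfra1 they were Ttll1 (0.0567), Sdk1 (0.0644) and Plcb3 (0.0671). Tchp, for example, had 55.3, 68.9 and 66.9 CPM in KO/KO and 40.1, 36.1 and 35.4 CPM in WT/WT. For Ncam1 they were Prkch (0.0381), Scamp1 (0.0394) and Pdzd2 (0.0433), and for Gfra4 Habp4 (0.0684), Hectd3 (0.0756) and St7 (0.0797).

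On this measure, which counts the size of a shift as well as its shape, Gfra2 and Gfra3 had more distant neighbours. The correlation (r) over the 6 libraries with the 3 nearest genes was between 0.981 and 0.988 for Gfra3 and between 0.929 and 0.955 for Gfra2. For Gfra4 it was between 0.967 and 0.980. For Gfra3 the nearest were Eef2k (0.122), Plppr3 (0.149) and Nlrc3 (0.153), each lowest in KO/KO replicates 2 and 3. For Gfra2 they were Rfx8 (0.343), Wfikkn2 (0.379) and Spon1 (0.402). In Rfx8, KO/KO replicate 1 also lay nearest to WT/WT, with 5.05, 13.8 and 11.5 CPM in KO/KO and 3.10, 3.18 and 2.06 CPM in WT/WT, but it lay above the WT/WT range, whereas Gfra2 in that library lay inside it. With an offset of 2 CPM, 1 of the 3 neighbours of Gfra2 and 0 of the 3 of Gfra3 remained.

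**Figure D5:**
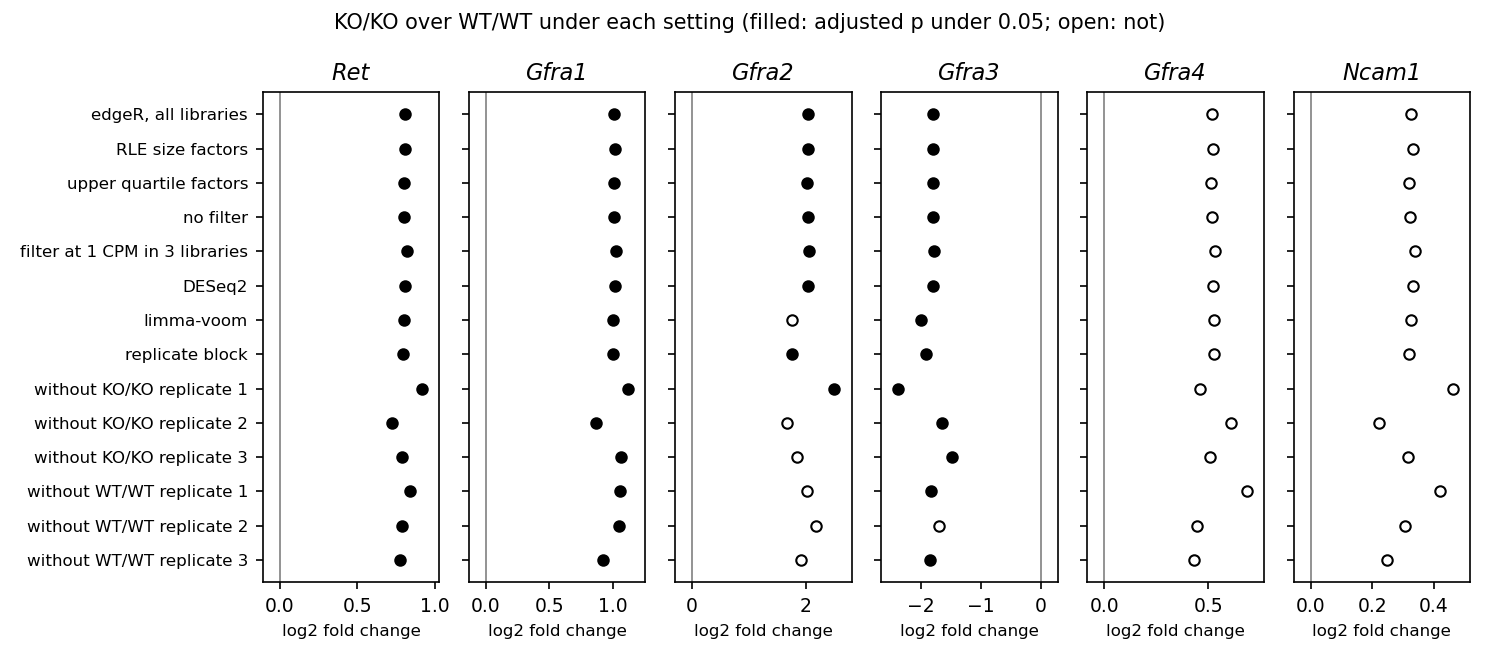
Log2 fold change of each member, KO/KO over WT/WT, in the fit with all libraries and in 13 alternatives (filled where the adjusted p was under 0.05, open where not; each panel has its own axis). Ret and Gfra1 are filled throughout, Gfra3 is open in 1 alternative and Gfra2 in 6, and Gfra4 and Ncam1 are open throughout.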

How the data were processed

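Libraries were made from total RNA with a SMARTer stranded kit, per the labels' protocols. The deposited files hold raw counts per gene or transposable element family, for which the submitters' processing notes name STAR 2.7.0a, featureCounts 1.5.1 and the mm10 build. The annotation, the strand setting and the handling of multimapping reads were not found in the labels or headers.

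The 1205 family rows were left out. Gene counts were tested in edgeR 4.0.16 (R 4.3.3) with TMM factors, filterByExpr, genotype as the only term and a two-sided quasi-likelihood F test, adjusted by Benjamini-Hochberg at a threshold of 0.05. The SE is the log2 fold change divided by the square root of F. CPM use gene totals and TMM factors. Exon lengths and positions come from GENCODE M21 on GRCm38, the assembly of mm10, matched by symbol. All pairs of libraries differed beyond sampling noise (chi-square per degree of freedom of at least 12.4). Fits were tested on simulated data. Alternatives used DESeq2 1.42.0 and limma 3.58.1, among others.

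Members and lists were chosen with earlier results of these data known. Named were the members, Dnmt3a, all ligands and GFRA-like genes, up to 6 called genes per list with the smallest p, the 3 nearest genes by pattern of each member, and markers that move with a result. Irs1, Egr2 and Etv5 were named after their values were seen. Some marker genes of the nerve list are not reported here by name. Figures were drawn with matplotlib 3.10.9.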

Additional observations from a re-analysis of the deposited data

How the results depend on the processing

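Scaling with RLE or upper quartile factors was tried, as were no filter, a filter at 1 CPM in 3 libraries, DESeq2, limma-voom, a replicate block and leaving out each library. No member changed direction. The log2 fold change ranged from 0.73 to 0.92 for Ret and from 0.87 to 1.12 for Gfra1, both called throughout, and from 0.43 to 0.69 for Gfra4 and from 0.22 to 0.46 for Ncam1, neither called. That of Gfra2 was 1.76 and not called with limma-voom, and ranged from 1.66 to 2.50 when a library was left out. That of Gfra3 ranged from -2.38 to -1.48 when a library was left out. The cause was not tested.

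Over all genes, 814 to 1985 were higher and 560 to 1380 lower when a library was left out, against 1776 and 1368 with all; the lowest counts came without WT/WT replicate 2. With a library left out, 2 to 6 GDNF-induced genes rose and 2 to 4 fell, 3 to 7 RET adaptors rose, and 0 to 1 NCAM1 partners rose (2 with no filter). Same-numbered libraries did not deviate together (r of -0.19, 0.06 and 0.10 across 13817 genes, which are not independent), and 1 of 6 libraries correlated best with its own number, so the numbers were not taken to pair the samples. With the replicate block 1467 genes were higher and 1107 lower, the log2 fold change of Gfra2 was 1.76 (adjusted p = 0.0327 in edgeR), and no member gained or lost its call. Depth limits the precision of Gfra3, at 33 to 70 reads per library in KO/KO and 119 to 172 in WT/WT, and of Gfra2, at 83 to 140 reads in WT/WT.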
